A study of Rattus norvegicus with 2 samples.

Results

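The genes described here encode proteins of the mitochondrial ribosome. Members were the protein-coding rat entries whose symbol begins with Mrpl or Mrps and a digit and whose FPKM, averaged over both libraries, reached 1. FPKM counts sequenced fragments relative to the length of the transcript and to the total of mapped fragments. Of 61 such genes listed in the files 58 reached that level, out of 4366 genes of any kind that did. They comprise 39 large subunit genes (Mrpl) and 19 small subunit genes (Mrps). Of the 58, 3 (mrpl9, mrpl11 and mrpl24) are spelled in lower case in the gene table and were counted with the rest. Another 20 genes so named in the table were not analysed here.

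The RNA came from H9c2, a cardiomyoblast cell line of embryonic rat heart. The high phosphate library came from cells given 2.5 mM phosphate for 12 h, and the control library from cells given 0.9 mM phosphate for the same time, both without serum. All cells had been grown with fetal bovine serum beforehand. There is 1 library of 1 cell line at each phosphate level, so differences below stand without replicates or a test. Summed over all 8039 listed entries, FPKM came to 346857 in high phosphate and 307622 in the control, and the reads behind each value are unknown.

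Markers of the cell type were checked first. Of 13 muscle markers 5 were listed, and 3 of these reached a mean of 1 FPKM, with a summed level of 157 FPKM in high phosphate and 136 FPKM in the control. Desmin (Des), a muscle filament protein, had 153 FPKM in high phosphate and 128.5 FPKM in the control, and the myogenic factor Myod1 had 1.59 FPKM in high phosphate and 6.11 FPKM in the control. Cardiac troponin genes, Myh6, Gata4 and Nkx2-5 were not analysed here, and the cardiac hormone gene Nppa was near 0 in both libraries. Of 9 markers of other cell types 8 were listed and 4 reached a mean of 1 FPKM, all of them higher in high phosphate, with a summed level of 258 FPKM in high phosphate and 147 FPKM in the control. Most of that sum was the keratin Krt8, which had 247 FPKM in high phosphate and 139.7 FPKM in the control. The leukocyte gene Ptprc and the fibroblast gene Pdgfra were listed at 0 in both libraries. The part of these markers in the differences below was not tested. In RNA from a whole culture, fewer cells that express a gene and less of its RNA per cell cannot be told apart.

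The mitochondrial ribosome translates the few messengers of the mitochondrial genome, which encode core subunits of the respiratory chain and of ATP synthase. All of its proteins are encoded in the nucleus, made in the cytosol and imported. Heart muscle draws most of its ATP from oxidative phosphorylation and depends on this supply. Some of the proteins have counterparts in bacterial ribosomes and others are found only in mitochondria. The positions in the ribosome given below are background from mammalian structures, mainly human and pig.

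Most of the 58 mitochondrial ribosomal protein genes were slightly lower in the high phosphate library, and none of the 58 was 2-fold apart. The difference was taken as log2((high phosphate FPKM + 1)/(control FPKM + 1)), called the log2 ratio. It was below 0 for 43 of the 58 genes, or 74.1%, against 49.4% of all 4366 genes compared. The median log2 ratio of the 58 was -0.12, and that of all genes was 0.00. The 58 log2 ratios lay between -0.78 and 0.44, and the middle 50% of them between -0.27 and 0.02. No gene of the family was at least 2-fold higher, where 1.76% of all genes were, and none at least 2-fold lower, where 0.87% of all genes were. With a threshold of 1.5-fold, none was higher (7.21% of all genes) and 3 were lower (3.37% of all genes). A total of 24 of the 58 genes lay in the lowest 25% of all log2 ratios and 3 in the highest 25%. The number of genes below 0 depended on scaling. With the high phosphate library scaled to the FPKM sum of the control, 54 of the 58 genes were lower, and so were 67.8% of all genes, whose median moved to -0.15.

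**Figure D1:**
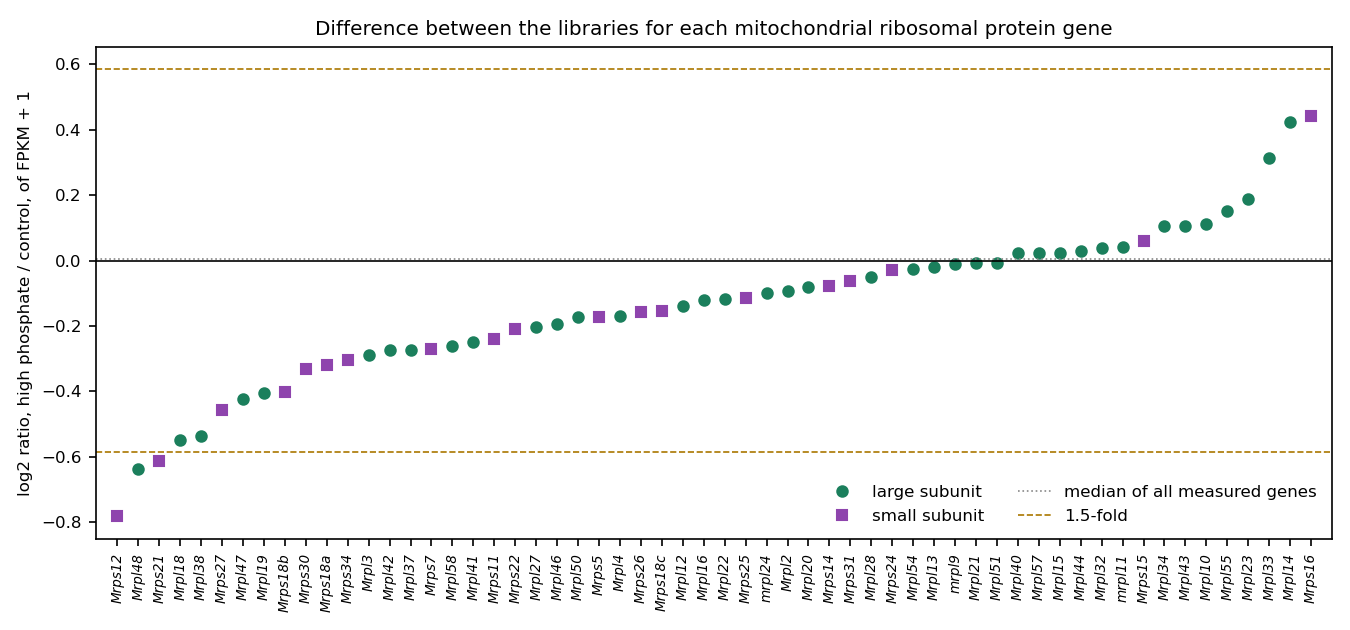
Log2 ratio of each of the 58 genes, ordered from lowest to highest, with large subunit genes as circles and small subunit genes as squares. The solid line is 0, the dotted line the median of all measured genes (0.00) and the dashed lines 1.5-fold; 3 genes lie below the lower dashed line and none above the upper one.

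Levels were alike in both libraries and came in nearly the same order. The median member had 33.2 FPKM in high phosphate and 35.2 FPKM in the control, while the median of all 4366 genes was 13.9 FPKM in high phosphate and 14.0 FPKM in the control. By mean FPKM, 45 of the 58 genes were in the upper 50% of all measured genes and 12 in the upper 20%. Across the 58 genes, FPKM of the libraries had a Spearman rho of 0.982, against 0.979 across all measured genes; genes of the same pair of libraries are not replicates. Although these proteins are parts of 1 particle, FPKM ran from 1.12 to 209 in high phosphate and from 1.52 to 194 in the control.

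**Figure D2:**
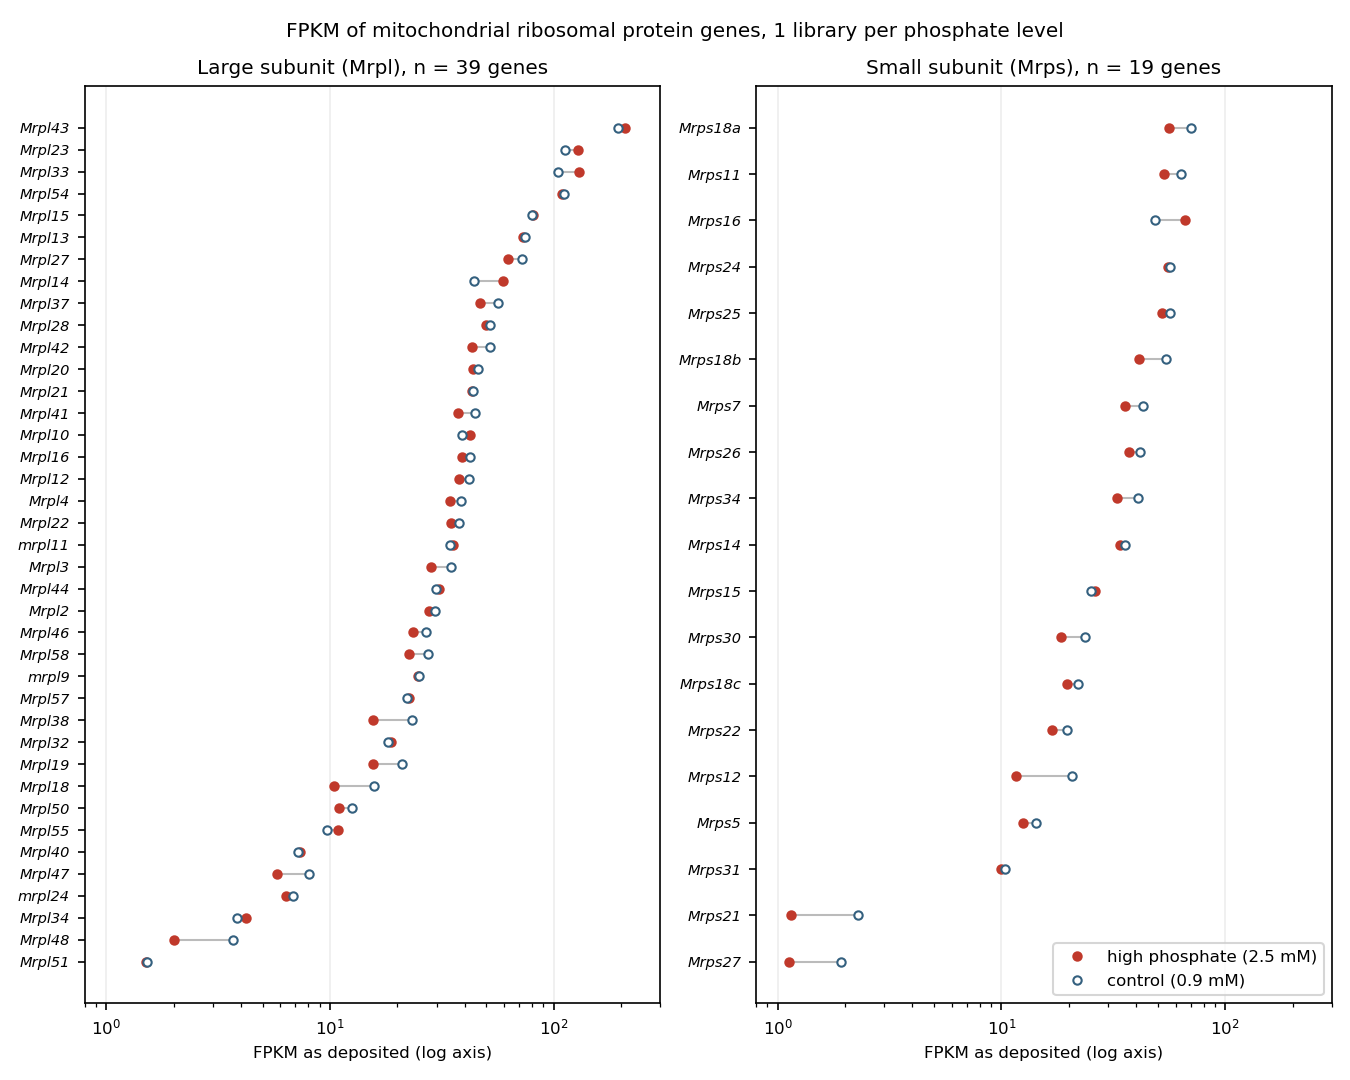
FPKM of every member, with high phosphate as filled and control as open points on a log axis, large subunit at the left and small subunit at the right, ordered by mean. In most genes the filled point lies left of the open one, and the widest gaps are those of Mrps21, Mrpl48, Mrps12 and Mrps27.

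In the large subunit, Mrpl43, which has a thioredoxin-like fold, was the most abundant member of the family with 209 FPKM in high phosphate and 194 FPKM in the control. Next came Mrpl23, at the rim of the tunnel through which the new peptide leaves, with 128 FPKM in high phosphate and 113 FPKM in the control. Mrpl33 had 129.9 FPKM in high phosphate and 104 FPKM in the control. These 3 were higher in the high phosphate library. Mrpl54, a stalk protein, had 109 FPKM in high phosphate and 111 FPKM in the control. Mrpl15 had 81.2 FPKM in high phosphate against 79.8 FPKM in the control. Mrpl13 had 73.1 FPKM in high phosphate against 74.1 FPKM in the control. The abundant genes below the top 3 thus differed little between the libraries. At the low end, Mrpl51 had 1.51 FPKM in high phosphate and 1.52 FPKM in the control, and Mrpl48, of the central protuberance, 2 FPKM in high phosphate and 3.67 FPKM in the control. Mrpl34 had 4.23 FPKM in high phosphate against 3.86 FPKM in the control. The tunnel rim protein mrpl24 had 6.35 FPKM in high phosphate against 6.87 FPKM in the control. Of these 4 scarce messengers Mrpl48 was the 1 with a wide gap.

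No small subunit gene came near the most abundant large subunit genes. By symbol the highest mean was that of Mrps18a, a protein that sits in the large subunit despite its name. It had 56.1 FPKM in high phosphate and 70.3 FPKM in the control. Mrps11 followed with 53.4 FPKM in high phosphate against 63.2 FPKM in the control. Mrps16 had 66.25 FPKM in high phosphate against 48.5 FPKM in the control. Of these 3, Mrps16 was higher in high phosphate and the others lower. Mrps24 had 55.5 FPKM in high phosphate and 56.6 FPKM in the control, Mrps25 had 52.3 FPKM in high phosphate and 56.7 FPKM in the control, and Mrps18b had 41.05 FPKM in high phosphate and 54.5 FPKM in the control. All 3 were lower in high phosphate, Mrps24 only slightly. The lowest small subunit member was Mrps27, a pentatricopeptide repeat protein, with 1.12 FPKM in high phosphate and 1.91 FPKM in the control. Mrps21, which has a bacterial counterpart, had 1.15 FPKM in high phosphate against 2.29 FPKM in the control. Above them stood Mrps31 with 9.92 FPKM in high phosphate and 10.4 FPKM in the control and Mrps5 with 12.5 FPKM in high phosphate and 14.3 FPKM in the control. All 4 were lower in high phosphate.

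Mrps27 and Mrpl51, with a mean of 1.515 FPKM each, stood just inside the threshold of 1 FPKM. Mrps17 stood just outside it with 0.68 FPKM in high phosphate and 1.01 FPKM in the control. Mrpl1 was listed at 0 FPKM in high phosphate and 0.10 FPKM in the control, and Mrpl41l1 at 0 FPKM in high phosphate and 0.06 FPKM in the control. For such low entries a value of 0 can mean that no estimate was made, and they are given as listed.

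Small subunit genes had the lower median. Of 39 large subunit genes 26 had a log2 ratio below 0, and of 19 small subunit genes 17. Median log2 ratios were -0.08 in the large and -0.21 in the small subunit, a difference of 0.13. The middle 50% of values overlapped, from -0.23 to 0.03 in the large and from -0.33 to -0.10 in the small subunit. Summed FPKM of the large subunit genes came to 1629 in high phosphate and 1647 in the control (ratio 0.989), while the small subunit genes summed to 581 in high phosphate and 650.5 in the control (ratio 0.894). Together the 58 genes summed to 2210 FPKM in high phosphate and 2298 FPKM in the control (ratio 0.962). They made up 0.637% of the listed FPKM in high phosphate and 0.747% in the control. The listed total was itself higher in high phosphate, at 346857 against 307622, which lowers that share. The difference between subunits was not tested, since genes within a library are not replicates. It was 0.08 when Mrps30 and Mrps18a, which despite their names sit in the large subunit, were counted there, and 0.09 among members with a mean of at least 5 FPKM. Among members with a mean of 10 to 100 FPKM the medians were closer still, at -0.12 in 29 large subunit genes and -0.17 in 17 small subunit genes.

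Mrps18a and Mrps30 themselves were lower in high phosphate. Mrps30 had 18.5 FPKM in high phosphate and 23.6 FPKM in the control, a log2 ratio of -0.33, and that of Mrps18a was -0.32. The relatives of Mrps18a that stay in the small subunit, Mrps18b and Mrps18c, had log2 ratios of -0.40 and -0.15. All 3 members of the Mrps18 trio were below 0, as were 74.1% of the family and 17 of the 19 Mrps genes.

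The lowest log2 ratio of the family belonged to Mrps12 (Entrez gene 292758; such numbers follow other symbols below), a protein at the decoding centre, where codon and anticodon pair. It was listed at 11.6 FPKM in high phosphate and 20.7 FPKM in the control, a log2 ratio of -0.78. A value in brackets after a gene or its FPKM is its log2 ratio. The adjacent gene Sars2, for the mitochondrial seryl-tRNA synthetase, had 6.04 FPKM in high phosphate and 8.72 FPKM in the control (-0.47). Mrpl48 (293149) and Mrps21 (689432) were the other genes more than 1.5-fold lower, with log2 ratios of -0.64 and -0.61, both at means under 5 FPKM. Mrpl18 (292244) followed with 10.45 FPKM in high phosphate and 15.7 FPKM in the control (-0.55). Mrpl38 (303685) had 15.6 FPKM in high phosphate against 23.15 FPKM in the control (-0.54). The log2 ratio of Mrps27 (361883) was -0.46. Without the added 1, listed FPKM of 5 genes was more than 1.5-fold apart: Mrps12, Mrpl48, Mrps21, Mrps27 and Mrpl18, all lower in high phosphate.

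At the other end, Mrps16 (688912), a small subunit protein with a bacterial counterpart, had the highest log2 ratio, 0.44. Mrpl14 (301250), which lies at the subunit interface and binds the assembly factor Malsu1, had 59.45 FPKM in high phosphate and 44.0 FPKM in the control, a log2 ratio of 0.43. Mrpl33 (100363539), Mrpl23 (64360) and Mrpl55 (287356) came next with log2 ratios of 0.31, 0.19 and 0.15, and Mrpl10 (691075) with 0.11. Of the 6 highest genes 5 belonged to the large subunit, which holds 39 of the 58 members. After rescaling to the same FPKM sum, Mrps16 (0.27), Mrpl14 (0.26), Mrpl33 (0.14) and Mrpl23 (0.02) were the 4 members above 0. The gene table holds 2 pseudogenes named for Mrps16 and 1 for Mrpl23. The sources used here do not say how reads shared with such copies were counted.

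By place in the large subunit, the central protuberance held Mrpl48, Mrpl18 and Mrpl38, the 3 lowest members of that subunit. This crown of the subunit faces the small subunit, and in mammals it holds a mitochondrial tRNA in place of 5S rRNA. The median log2 ratio of its 7 listed proteins was -0.20. Of these, 5 (71.4%) were lower, against 66.7% of large subunit genes and 74.1% of the family. Their median level was 10.9 FPKM in high phosphate and 15.7 FPKM in the control. In the large subunit it was 34.3 FPKM in high phosphate and 34.7 FPKM in the control. Mrpl27 had 62.8 FPKM in high phosphate and 72.4 FPKM in the control (-0.20), and Mrpl46 had 23.45 FPKM in high phosphate and 26.95 FPKM in the control (-0.19). Mrpl40, with 7.31 FPKM in high phosphate and 7.18 FPKM in the control, and Mrpl55, with 10.9 FPKM in high phosphate and 9.70 FPKM in the control, had log2 ratios of 0.02 and 0.15. With both libraries at the same FPKM sum all 7 were below 0, as were 92.3% of large subunit genes and 67.8% of all genes.

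Proteins of the stalk, which recruits the translational GTPases, were nearly level. Mrpl10, at the stalk base, had 42.1 FPKM in high phosphate and 38.85 FPKM in the control (0.11). Its neighbour mrpl11 had 35.4 FPKM in high phosphate and 34.3 FPKM in the control (0.04). Mrpl12, which in human cells also binds the mitochondrial RNA polymerase, had 37.8 FPKM in high phosphate and 41.7 FPKM in the control (-0.14). With Mrpl54 (-0.03), the median of these 4 was 0.01 as deposited, -0.02 at the same upper quartile and -0.16 at the same FPKM sum. At the rim of the exit tunnel 3 of 5 listed proteins were lower, with a median of -0.10. Mrpl47 had 5.79 FPKM in high phosphate against 8.10 FPKM in the control (-0.42). Mrpl22 had 34.75 FPKM in high phosphate against 37.8 FPKM in the control (-0.12). Mrpl44, a protein with an RNase III fold, had 30.6 FPKM in high phosphate against 29.9 FPKM in the control (0.03). Beside them mrpl24 had a log2 ratio of -0.10 and Mrpl23 one of 0.19, so the rim lay on both sides of 0.

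Among proteins found only in mitochondria and among those with a bacterial counterpart, more genes were below 0 than above. Over all genes 49.4% were below 0. In the large subunit 10 of 14 mitochondria-specific genes were below 0 (median -0.18), and 16 of 25 genes with a bacterial counterpart (median -0.05). In the small subunit 7 of 7 mitochondria-specific genes (median -0.21) and 8 of 10 genes with a bacterial counterpart (median -0.16) were below 0, Mrps18a and Mrps30 being set aside. Summed FPKM of the large subunit genes with a bacterial counterpart was slightly higher in high phosphate (ratio 1.01). That of each other class was lower in high phosphate. Among the mitochondria-specific genes, Mrpl58, which frees peptides from stalled ribosomes in human cells, had 22.7 FPKM in high phosphate and 27.4 FPKM in the control. Mrps34, a small subunit protein, had 32.7 FPKM in high phosphate against 40.6 FPKM in the control. Mrps22, also of the small subunit, had 16.8 FPKM in high phosphate against 19.55 FPKM in the control. These are counts over few genes, and the differences between the classes were not tested.

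Ribosomal proteins that carry other names gave mixed values. Gadd45gip1, of the large subunit, had 35.5 FPKM in high phosphate and 42.2 FPKM in the control. Chchd1, of the small subunit, had 43.7 FPKM in high phosphate against 42.4 FPKM in the control. Aurkaip1 and Dap3, also of the small subunit, were listed at 0 in high phosphate, and at 3.25 and 0.27 FPKM in the control. Dap3 did not reach a mean of 1 FPKM. Aurkaip1 did, with a log2 ratio of -2.09, which is at least 2-fold lower, where 0.87% of all genes were. Its 0 can mean that no estimate was made, and by its symbol it is not among the 58.

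The low lean was also present among genes of middling level. Among genes with a mean of 10 to 100 FPKM, 36 of 46 members (78.3%) and 1104 of all 2097 genes (52.6%) had a log2 ratio below 0, with medians of -0.15 in the members and -0.02 in all genes. Members with a named pseudogene in the gene table had a median of -0.13 (11 of 16 below 0) and the other 42 members a median of -0.12 (32 below 0).

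Most genes that help to build the mitochondrial ribosome were lower as well. Of 13 measured genes of assembly and rRNA modification, 12 were lower in high phosphate (median log2 ratio -0.16), against 49.4% of all genes. Their median level was 8.82 FPKM in high phosphate and 9.62 FPKM in the control. Mterf3, a regulator of mitochondrial transcription and ribosome biogenesis, had 1.64 FPKM in high phosphate and 5.39 FPKM in the control (-1.28). It was the 1 gene of this list at least 2-fold lower, where 0.87% of all genes were. The rRNA methyltransferase Mrm3 had 3.72 FPKM in high phosphate and 7.03 FPKM in the control (-0.77). Gtpbp10 (-0.03) and Ngrn (0.00) differed least, and the most abundant gene of the list, C1qbp, had 61.9 FPKM in high phosphate and 69.5 FPKM in the control. Of 10 genes of mitochondrial transcription and of RNA and DNA upkeep 8 were lower, again against 49.4% of all genes, with a median of -0.20. The lowest were Polg2, the accessory subunit of the mitochondrial DNA polymerase (-0.60), and the tRNA-processing enzyme Elac2 (-0.46). Tefm (0.10) and Hsd17b10 (0.15) were higher, and Hsd17b10, a subunit of mitochondrial RNase P, was most abundant with 61.7 FPKM in high phosphate and 55.55 FPKM in the control.

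Lists of genes that work with the finished ribosome had medians slightly below 0. Over all genes 49.4% had a log2 ratio below 0. Of 7 measured translation factors 4 (57.1%) were lower, with a median of -0.10. The elongation factor Gfm1 had 12.5 FPKM in high phosphate and 16.4 FPKM in the control, and the initiation factor Mtif2 had 2.18 FPKM in high phosphate and 2.65 FPKM in the control. The release factor Mtrf1 (0.27) and the membrane insertase Oxa1l (0.05) were highest, and the elongation factor Tufm was most abundant with 68.4 FPKM in high phosphate and 76.2 FPKM in the control. Of 7 aminoacyl-tRNA synthetases and related enzymes 5 (71.4%) were lower (median -0.03). Yars2 (-0.49) and Sars2 (-0.47) were lowest and Pars2 (0.22) and Kars1 (0.43), which also serves the cytosol, highest. Of 19 import genes 11 (57.9%) were lower, with a median of -0.08. The shares of translation factors and import genes were thus near that of all genes. Among import genes Timm21 (-0.46) and Tomm40 (-0.35) stood at one end and Tomm7 (0.24) and Grpel1 (0.44) at the other. Tomm7, a small subunit of the outer membrane translocase, was most abundant with 625 FPKM in high phosphate and 528 FPKM in the control. Messengers encoded in the mitochondrial genome were not analysed here.

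Of 12 regulators of mitochondrial biogenesis 5 were listed. As deposited 4 of these were higher in high phosphate (median 0.12), and at the same FPKM sum 2 were (median -0.05). Myc had 42.2 FPKM in high phosphate and 32.4 FPKM in the control (0.37). Nrf1, a factor that binds promoters of nuclear genes for mitochondrial proteins, had 1.79 FPKM in high phosphate and 1.45 FPKM in the control (0.19), and Sp1 had a log2 ratio of 0.05. The mitochondrial transcription factor Tfam, also counted among the upkeep genes, had 30.45 FPKM in high phosphate and 34.2 FPKM in the control (-0.16).

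The mitochondrial ribosomal protein genes had a lower median than the nuclear genes of the cytosolic ribosome and of the respiratory chain. Of 52 measured genes for proteins of the cytosolic ribosome, chosen by symbol, 7 had a log2 ratio below 0 and the median was 0.20. Of 63 nuclear genes of the respiratory chain and ATP synthase, chosen by symbol, 14 were below 0, with a median of 0.17. After rescaling to the same FPKM sum, 54 of 58 genes of the mitochondrial ribosome were below 0 (median -0.29). So were 17 of 52 for the cytosolic ribosome (median 0.02) and 31 of 63 for the respiratory chain (median 0.00). Over all genes 49.4% were below 0 as deposited and 67.8% at the same sum. The cytosolic ribosomal genes alone made up 23.1% of the listed FPKM in high phosphate and 22.6% in the control. They therefore weigh on the factor of this rescaling. The groups also differed in level. In the control the median was 35.2 FPKM for the mitochondrial ribosome, 1167 FPKM for the cytosolic ribosome and 142 FPKM for the respiratory chain. Across the 58 genes mean FPKM and log2 ratio had a Spearman rho of 0.313, against 0.066 across all measured genes. The differences between these groups, and the part of level in them, were not tested.

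**Figure D3:**
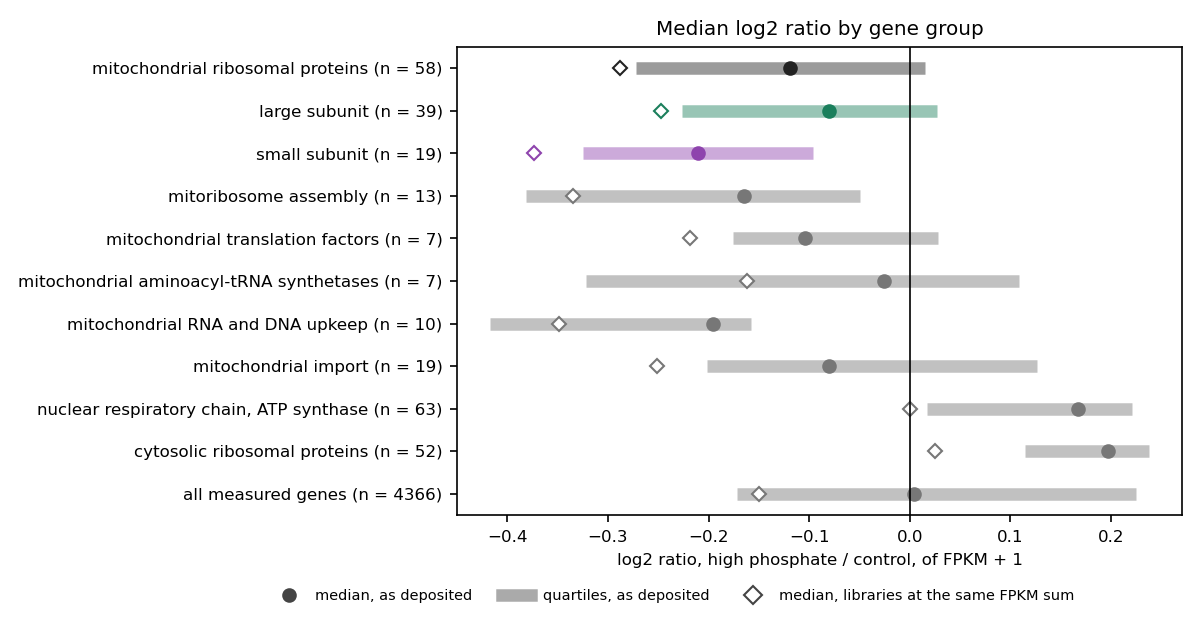
Median log2 ratio (filled circle) and quartiles (bar) of each gene group as deposited, with the median after both libraries were set to the same FPKM sum (open diamond). Rescaling moves every median drawn to the left; as deposited the small subunit, at -0.21, lies furthest left of the groups drawn and the cytosolic ribosome, at 0.20, furthest right.

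Promoters were compared next, a feature that the choice of genes did not use. RefSeq promoter windows (build GRCr8), from 250 bases before to 50 bases after the gene start, were held for 47 of the 58 genes in 49 windows. Each was searched on both strands for letters bound by factors known from nuclear genes for mitochondrial proteins. The letters AAGATGGC, bound by YY1, were found in 11 of 47 members (23.4%) and in 6.46% of the 3609 measured genes with a window. As shares of windows they were in 22.4% of the members' windows and in 3.17% of all 33469 windows. CCGGAAG, bound by ETS factors such as GABP, was in 34.0% of members and 22.4% of measured genes. It was in 9.63% of all 27457 genes with a window, measured or not. GCGCNTGCG, bound by NRF1, was in 17.0% of members and 14.7% of measured genes, and in 6.52% of all genes with a window. Of the 7 motifs searched the ratio of these shares, members to measured genes, was highest for YY1, and the NRF1 share of members rests on 8 genes.

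The GC-box GGGCGG of SP factors was in 48.9% of members and 65.1% of measured genes, and in 36.0% of all genes with a window. CCAAT was in 46.8% of members and 40.3% of measured genes, and in 39.6% of all genes with a window. The members' windows had a median GC content of 55.0%, against 60.7% in the windows of measured genes. CACGTG, the E-box bound by MYC, was in 10.6% of members and 11.1% of measured genes, and in 7.08% of all genes with a window. The core ACGTG of sites for HIF, which every CACGTG contains, was in 19.1% of members and 29.1% of measured genes. It was in 20.9% of all genes with a window. A match is not a site shown to be bound, and the part of base composition in these shares was not tested.

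**Figure D4:**
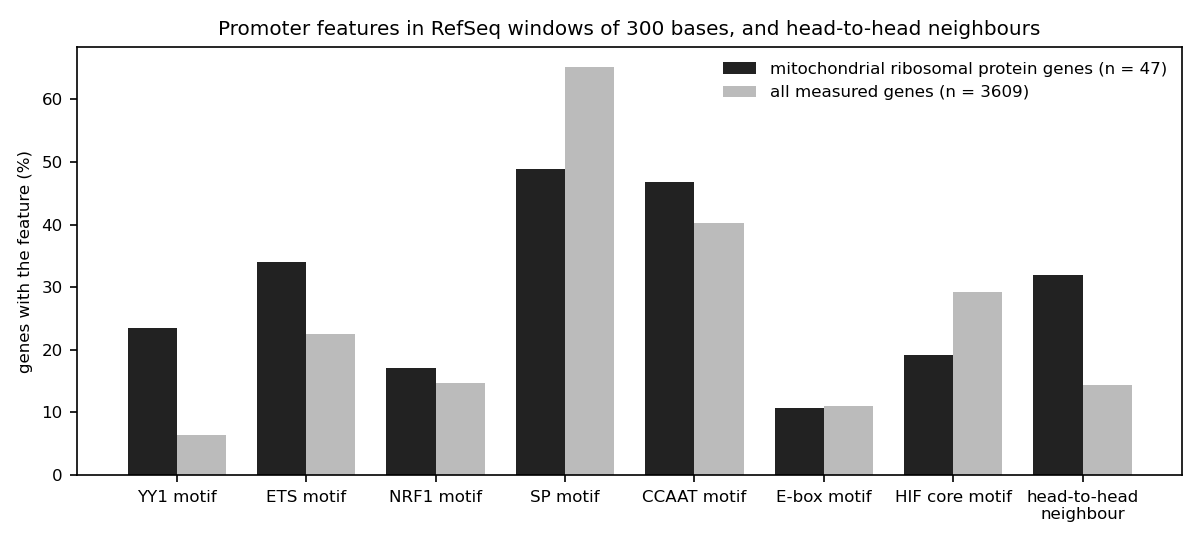
Share of genes with each feature, in percent, for the 47 mitochondrial ribosomal protein genes with a promoter window (black bars) and all 3609 measured genes with one (grey bars). The YY1 letters (23.4% against 6.46%) and a head-to-head neighbour (31.9% against 14.4%) differ most in proportion, while the E-box is alike.

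The YY1 letters lay mostly just past the gene start: 9 of 11 matches in the members and 56.3% of 238 matches in measured genes were in the 50 bases after it. They include ATG, and whether a match is also the start of the coding sequence was not examined. The windows below run from 60 bases before to 30 bases after the start. They show every member whose YY1 match falls wholly inside. Mrps16 was added because it has the highest log2 ratio, so it does not stand for members without the letters. Of 36 members with a window that lacks the letters, 24 were below 0. Capitals mark matches to the YY1 and ETS letters, of which Mrps18a holds both and Mrps16 neither. In build GRCr8 the windows are Mrps30 at chr2:52195875-52195964 (minus strand), Mrps18a at chr9:22367351-22367440 (minus strand), Mrpl42 at chr7:32028493-32028582 (minus strand), Mrpl37 at chr5:127074938-127075027 (minus strand), Mrps7 at chr10:101342582-101342671 (plus strand) and Mrps16 at chr15:3967749-3967838 (plus strand).
Mrps30: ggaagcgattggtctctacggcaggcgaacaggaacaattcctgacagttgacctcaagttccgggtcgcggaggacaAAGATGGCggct
Mrps18a: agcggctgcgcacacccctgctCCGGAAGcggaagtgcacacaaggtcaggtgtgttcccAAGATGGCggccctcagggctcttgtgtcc
Mrpl42: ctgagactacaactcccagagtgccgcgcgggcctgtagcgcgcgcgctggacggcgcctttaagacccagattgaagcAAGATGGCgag
Mrpl37: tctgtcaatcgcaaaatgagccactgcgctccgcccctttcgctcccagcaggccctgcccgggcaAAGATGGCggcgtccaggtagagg
Mrps7: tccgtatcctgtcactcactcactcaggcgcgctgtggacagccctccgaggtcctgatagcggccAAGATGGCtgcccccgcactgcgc
Mrps16: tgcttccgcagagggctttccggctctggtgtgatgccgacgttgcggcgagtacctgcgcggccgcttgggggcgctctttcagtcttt

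The 5 printed members with the YY1 letters all had lower values in high phosphate, as did 74.1% of the family. They are only the members whose match lies wholly inside the printed stretch. Mrpl42 had 43.0 FPKM in high phosphate and 52.2 FPKM in the control (-0.27). Mrpl37 had 46.7 FPKM in high phosphate and 56.6 FPKM in the control (-0.27). Mrps7, which has a bacterial counterpart, had 35.5 FPKM in high phosphate and 43.0 FPKM in the control (-0.27). Of all 11 members with the letters 10 were below 0 (median -0.27), and of 36 members with a window that lacks them 24 (median -0.08). Over all measured genes the medians were -0.07 with the letters (145 of 233 below 0) and 0.01 without them (1655 of 3376 below 0). Members with the E-box had a median of -0.15 (5 of 5 below 0) and members without it -0.12 (29 of 42 below 0). Over all measured genes the E-box gave a split like that of YY1, with medians of -0.08 with it (236 of 400 below 0) and 0.01 without it (1564 of 3209 below 0). Members with the ETS letters had a median of -0.19 (13 of 16 below 0) and members without them -0.09 (21 of 31 below 0). Over all measured genes these medians were -0.04 with the ETS letters and 0.02 without them. Members with the NRF1 letters had a median of 0.01 (4 of 8 below 0) and members without them -0.15 (30 of 39 below 0). Over all measured genes the NRF1 split ran the other way, with medians of -0.02 with the letters (55.2% below 0) and 0.01 without them (49.0% below 0). For the GC-box the members' medians were -0.15 with it and -0.11 without it, for CCAAT -0.13 with it and -0.12 without it, and for the HIF core -0.10 with it and -0.13 without it. None of these 7 splits was tested, and no motif is set apart by them.

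Head-to-head neighbours were the other promoter feature compared. Among members with a window, 15 of 47 (31.9%) had another protein-coding gene starting within 1000 bases upstream on the opposite strand, against 14.4% of measured genes and 7.22% of all protein-coding genes. A single pair joined the subunits: Mrpl46, of the large subunit, and Mrps11, of the small subunit, start head to head, and their log2 ratios were -0.19 and -0.24. Mrpl18 (-0.55) shares its start region with Tcp1, a subunit of the cytosolic chaperonin, which had 65.65 FPKM in high phosphate and 90.7 FPKM in the control (-0.46). In these pairs both genes were lower in high phosphate. Mrpl47 (-0.42) stands opposite Ndufb5, a respiratory complex I subunit, which had 48.6 FPKM in high phosphate and 42.45 FPKM in the control (0.19). Mrpl2 (-0.09) stands opposite Klc4 (0.55), Mrpl27 (-0.20) opposite Eme1 (0.03) and Mrpl32 (0.04) opposite Psma2 (-0.08). In these 4 the genes of a pair were on different sides of 0. The pairs described are those of the 7 members, out of the 15, whose neighbour was also measured.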

How the data were processed

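RNA was sequenced as 1 library per phosphate level. The values are FPKM per the file headers, computed by the authors and listed to 2 decimals. Per the submitters' processing notes, Rnor_6.0 was the build, and the tools were TopHat2 2.1.1, Cufflinks 2.2.1, Cuffdiff and bcl2fastq. What each tool did, the annotation, the strand setting and any scaling between libraries were not stated. Of 8039 entries, 236 without a usable identifier were left out. Names and promoter windows came from RefSeq tables of GRCr8, matched by Entrez identifier. Differences were computed on log2(FPKM + 1) where the mean reached 1 FPKM, a scale that understates differences of low genes, with thresholds of 2-fold and 1.5-fold and no test. The depth is unknown, so no counting interval is given.

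The members, gene lists and motifs were chosen with earlier results of these data known, and motifs and neighbours were added after the values were seen. Values are given for members at least 1.5-fold apart, the 6 highest and 6 lowest log2 ratios, the 6 most and 4 least abundant genes of each subunit, the stalk, tunnel rim and central protuberance, and genes beside the 1 FPKM threshold. Of each partner list the 2 highest, 2 lowest and most abundant genes are named, except a gene that is not reported here. Other members serve as examples. Alternatives were pseudocounts of 0.1 and 0.5, 3 rescalings, other filters on low values, the 1.5-fold threshold and other memberships. The calculations were tested on simulated data. Software was matplotlib 3.10.9, scipy 1.17.1, pandas 2.3.3 and numpy 2.4.6 under Python 3.11.15.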

Additional observations from a re-analysis of the deposited data

How the results depend on the processing

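All results rest on 1 library per phosphate level, so no replicate could be left out, and the depth is unknown. A log2 value that moved by less than 0.1, or a count within 1.5-fold, was taken as the same. Of 88 alternative values of the main results 81 were the same. At the same FPKM sum the median log2 ratio was -0.29 over all members, -0.25 in the large and -0.37 in the small subunit, 4 members were above 0, and the ratio of summed FPKM was 0.877 in the large and 0.792 in the small subunit. This rescaling lowers every value of the high phosphate library by 1 factor, 0.887. With the 1.5-fold threshold 3 members were lower instead of 0. The members' median minus that of all genes lay between -0.12 and -0.14 under all alternatives run. Of 104 values for 13 gene lists, 90 were the same, 11 moved, all at the same FPKM sum, and 3 turned in sign. These were the regulators of mitochondrial biogenesis at the same sum (-0.045), and the stalk at the same sum (-0.16) and at the same upper quartile (-0.017). Leaving out mrpl9, mrpl11 and mrpl24, an alternative chosen after seeing the data, left 41 of 55 members below 0. No paired analysis was possible because each phosphate level had 1 library.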
